A study of Mus musculus with 40 samples.

Results

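The 3 microRNAs described here, mmu-miR-192-5p, mmu-miR-194-5p and mmu-miR-122-5p (written without mmu below), were taken by name as the main strands of hairpins known from liver and gut. All 3 were among the 1915 mature microRNAs of the count table. They were measured in 40 small RNA libraries of total blood from male C57B/6J wild-type mice, bought from Janvier Labs and housed singly, with 10 libraries from each of the ages 12, 13.5, 15 and 16.5 months. All groups were unmodified wild-type animals of one sex and strain, so that age was the only labelled difference. Blood came from the retro-orbital sinus, and the libraries hold RNA of red cells, white cells, platelets and plasma together. The study trained mice in a water maze and kept a second group in the home cage without testing, and the labels do not say which libraries belong to which. At the 3 later ages blood was taken 24 h after the memory test, whereas the study describes the bleeding at 12 months both as before any behavioural test and as after a first training.

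miR-192, miR-194 and their relative miR-215 are abundant in the lining of the intestine, in liver and in kidney, where hepatocyte nuclear factors drive their transcription. miR-122 is the characteristic microRNA of hepatocytes, and its appearance in plasma is used as a sign of liver injury. A mature microRNA guides the Argonaute protein to messenger RNAs that pair with its seed, bases 2 to 8 from the 5′ end, so that microRNAs with the same seed can share targets.

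The sequences below are shown because they set which reads can be told apart and which microRNAs share a seed. They are RefSeq sequences of GRCm38.p6, written 5′ to 3′, with the seed in capitals.
miR-192-5p: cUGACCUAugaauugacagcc
miR-215-5p: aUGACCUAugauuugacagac
miR-194-5p: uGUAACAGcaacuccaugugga

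miR-192-5p and miR-215-5p carried the same seed and were identical at 18 of 21 positions. Counted from 1 at the 5′ end of miR-192-5p, they differed by C1A, A12U and C20A. Among the 1623 microRNAs of the count table with a RefSeq sequence, these 2 were the ones with that seed, and miR-194-5p was the only one with its own. The authors mapped reads to hairpins without any mismatch, so that a read covering position 12 could not be assigned to both miR-192-5p and miR-215-5p.

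The hairpins lie in a pair of clusters. On the plus strand of chromosome 19 (GRCm38), Mir194-2 (6264643 to 6264728) and Mir192 (6264844 to 6264932) are separated by 115 bases. GENCODE M21 places no other gene over either hairpin, and the nearest neighbours are the protein-coding gene Atg2a, 2307 bases before, and the lincRNA Gm14963, 3862 bases after. On the plus strand of chromosome 1, Mir194-1 (185313319 to 185313385) and Mir215 (185313581 to 185313692) are separated by 195 bases. There, Mir194-1 lies in an intron and Mir215 in an exon of the non-coding gene 2010103J01Rik, and both lie in an intron of Iars2 on the opposite strand. Mir194-1 and Mir194-2 give the same mature miR-194-5p, so its reads cannot be assigned to one cluster. The count was odd in 19 of 40 libraries, so it was not a plain doubling of each read over both hairpins.

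The libraries held between 2469200 and 21386200 counts. The reads of miR-486, a red-cell microRNA, are entered in more than 1 row of the table. The counts outside miR-486 were between 93002 and 1739960 per library. They were between 3.48% and 19.1% of a total in which the miR-486 counts were divided by 2, so that reads entered in 2 rows count once. At 15 months the median of this share was 8.54%, against 14.0%, 12.7% and 13.7% at 12, 13.5 and 16.5 months. As many as 3 libraries were shallow for the microRNAs described here, judged by their reads of miR-194-5p. They were 1 library at 15 months with 24 reads, and 2 at 16.5 months with 31 and 22. Their counts outside miR-486 were 114748, 186076 and 93002. At 15 months, 2 further libraries had similarly few counts outside miR-486 (183055 and 188660), with 61 reads of miR-194-5p in each. The column names follow age. Those of 12 and 16.5 months share one form, those of 13.5 months have another, and those of 15 months have 2 more, of 3 and 7 libraries. Neither the labels nor the names say what these forms stand for, and form and age cannot be told apart except between 12 and 16.5 months.

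miR-122-5p was close to absent. It had 8 reads in all, in 5 of 40 libraries. At 12 months 4 libraries held 2, 1, 1 and 3 reads, at 15 months 1 library held 1 read, and all libraries of 13.5 and 16.5 months had 0. Over 26398000 counts outside miR-486 this was 0.303 CPM of those counts (exact Poisson 95% interval 0.131 to 0.597). The intervals and limits given here cover counting error only, since amplified reads are not independent molecules. At 12 months it was 0.723 CPM (0.291 to 1.49). The 0 reads at 13.5 months allowed up to 0.379 CPM, taken as 3 counts of the total, and those at 16.5 months up to 0.487, and the upper bounds of the Poisson interval were 0.466 and 0.598. The other strand, miR-122-3p, had 1 read. miR-122-5p failed both filters on low counts and was not tested, so that no difference between ages is reported.

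miR-192-5p, in contrast, was among the abundant microRNAs of these libraries. It had 242209 reads in all, was found in 40 of 40 libraries and ranked 17 of 1012 microRNAs by its mean share of counts outside miR-486. miR-194-5p had 9873 reads in 40 of 40 libraries and ranked 74. miR-215-5p had 6224 reads in 40 of 40 libraries and ranked 87, while miR-122-5p ranked 624. For each read of miR-122-5p there were 30276 of miR-192-5p (95% interval of the ratio 15365 to 70128). These microRNAs are of similar length, and adapter ligation can favour some sequences over others, so the comparison is one of reads and not of molecules.

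**Figure D1:**
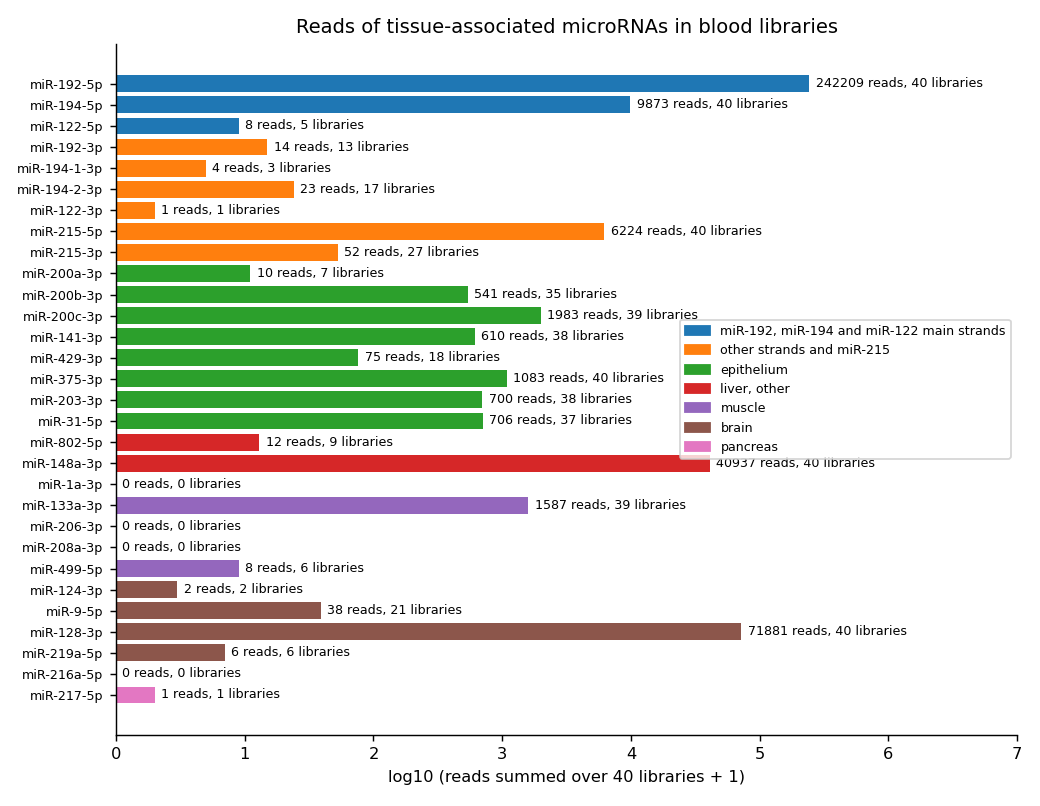
Reads summed over the 40 blood libraries for each microRNA of the tissue lists, on a log10 scale after adding 1, with the number of reads and of libraries with a read beside each bar. miR-192-5p reached 242209 reads in 40 libraries, whereas miR-122-5p had 8 in 5.

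Other microRNAs of liver and epithelium were set beside them. miR-802-5p, a second microRNA enriched in liver, had 12 reads in 9 of 40 libraries. miR-148a-3p, which is abundant in liver but also in blood cells, had 40937 reads in 40 libraries. Of the 8 epithelial microRNAs, all had reads but none passed the filter of more than 100 reads in 50% of libraries. Their totals ran from 10 reads for miR-200a-3p to 1983 for miR-200c-3p, a member of the family that keeps epithelial cells in their differentiated state. miR-375-3p, typical of endocrine and gut epithelial cells, had 1083 reads. In the lists of muscle and pancreas, miR-1a-3p, miR-206-3p, miR-208a-3p and miR-216a-5p had 0 reads, miR-499-5p had 8, miR-217-5p had 1 and miR-133a-3p had 1587. In the brain list, miR-124-3p had 2, miR-219a-5p 6 and miR-9-5p 38 reads, and miR-128-3p, which blood cells express as well, had 71881. Since miR-122-5p, the defining microRNA of hepatocytes, and miR-802-5p were at or near 0, the microRNAs are called by their own names here and not by a tissue.

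The passenger strands were rare. miR-192-3p had 14 reads in 13 libraries, which left 17301 reads of miR-192-5p for each (95% interval 10311 to 31646). miR-194-2-3p, the other strand of the chromosome 19 hairpin, had 23 reads, and miR-194-1-3p of chromosome 1 had 4. miR-215-3p had 52 reads, or 120 of miR-215-5p for each (95% interval 91.2 to 160).

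miR-192-5p differed between ages and was highest at 15 months. Levels are given as log2 CPM with TMM factors, which rescale each library so that most microRNAs keep their level. At 12 months the lowest, median and highest libraries lay at 8.55, 8.98 and 9.73 (mean 9.02 ± 0.41, SD, n = 10). At 13.5 months they lay at 8.26, 8.70 and 9.47 (mean 8.80 ± 0.41, SD, n = 10). The ranges of these 2 ages overlapped over most of their length. At 15 months they lay at 9.12, 9.33 and 10.20 (mean 9.55 ± 0.45, SD, n = 10), and at 16.5 months at 8.34, 8.74 and 9.57 (mean 8.88 ± 0.46, SD, n = 10). Of the 15-month libraries, 4 of 10 lay above every 12-month library and 10 of 10 above the 12-month mean. As a share of counts outside miR-486, without TMM factors, the means were 0.923%, 0.812%, 1.36% and 0.803% in the order of age.

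By edgeR's quasi-likelihood test with Benjamini-Hochberg adjustment over 105 microRNAs, miR-192-5p changed over the 4 ages (adjusted p = 0.00182). Of the microRNAs tested, 61.0% were called over age, so that 1 call among the 2 microRNAs tested here was near the background. Against 12 months, miR-192-5p was higher at 15 months by a log2 of 0.55 (SE 0.19, adjusted p = 0.0357), where 23.8% of the microRNAs were called and 7.62% were called higher. Against 13.5 months it was higher at 15 months by 0.77 (SE 0.19, adjusted p = 0.000951), with 47.6% called and 17.1% called higher. From 15 to 16.5 months it fell by 0.67 (SE 0.19, adjusted p = 0.00772), with 28.6% called and 9.52% called lower. The differences of 13.5 and 16.5 months from 12 months were -0.22 (95% interval -0.61 to 0.16) and -0.13 (-0.51 to 0.26), and 16.5 months differed from 13.5 months by 0.093 (-0.29 to 0.48). None of these 3 passed the test, with adjusted p of 0.430, 0.639 and 0.727. They include the difference of 12 and 16.5 months, the only one between ages with the same form of column names.

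The rise at 15 months depended on how the libraries were scaled. With library totals alone, in which the miR-486 reads set most of the total, the median of all 105 microRNAs was shifted by -0.84 between 15 and 12 months and by -0.81 between 15 and 13.5 months. miR-192-5p then differed by -0.19 and 0.039, which was above these medians, and its change over age did not pass the test (adjusted p = 0.817). With the miR-486 rows left out before scaling, it was higher by 0.65 at 15 months than at 12 (adjusted p = 0.00710). With the lower filter of more than 1 read in 50% of libraries, which left 345 microRNAs, the difference was 0.52 (adjusted p = 0.0587). The difference of 15 and 12 months also lost its call without any 1 of 6 libraries, with values from 0.46 to 0.68 over all 40 libraries left out in turn and adjusted p up to 0.0825. Those 6 were 2 libraries of 12 months and 4 of 15 months. The summed level of the red-cell list, 7 rows that include miR-486, is given beside this result. Its range was 19.95 to 21.96 at 15 months and 19.25 to 20.25 at 12 months on the log2 CPM scale, and its part in the result was not tested.

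**Figure D2:**
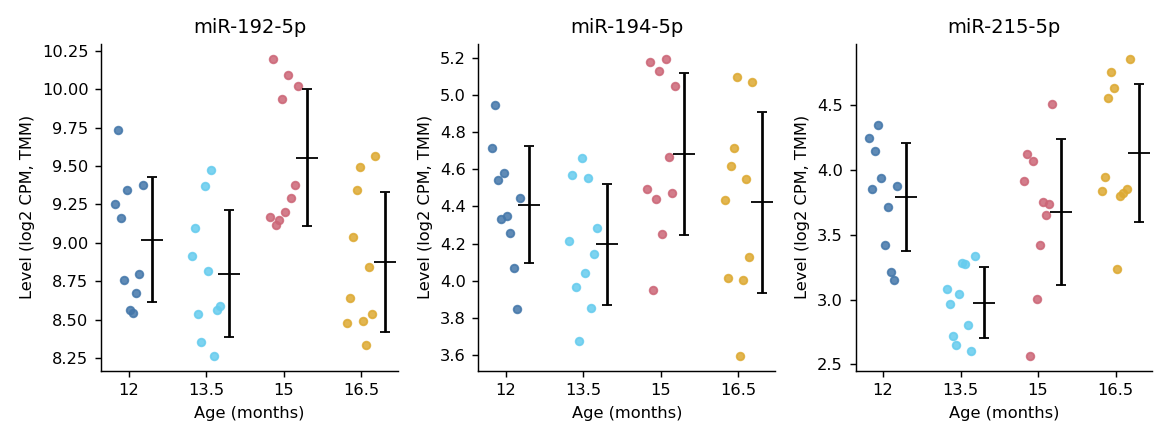
Level (log2 CPM with TMM factors) of miR-192-5p, miR-194-5p and miR-215-5p in each library against age in months. Points are libraries, and the bar and whiskers beside them give the mean and SD of 10 libraries. miR-192-5p had its highest mean at 15 months (9.55), and miR-215-5p its lowest at 13.5 months (2.98).

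miR-194-5p, of which a copy lies in the chromosome 19 cluster with miR-192, had means that lay closer together over age, from 4.20 to 4.68. The lowest, median and highest libraries were at 3.85, 4.40 and 4.95 log2 CPM at 12 months (mean 4.41 ± 0.31, SD, n = 10). At 13.5 months they were at 3.68, 4.18 and 4.66 (mean 4.20 ± 0.33, SD, n = 10). At 15 months they were at 3.95, 4.58 and 5.19 (mean 4.68 ± 0.43, SD, n = 10). At 16.5 months they were at 3.596, 4.49 and 5.10 (mean 4.42 ± 0.49, SD, n = 10). All 4 ranges overlapped, and as for miR-192-5p the mean was highest at 15 months and lowest at 13.5 months. The 15-month libraries above every 12-month library were 4 of 10 for miR-194-5p and were the same 4 as for miR-192-5p. Of these 4 libraries, 1 had a column name of the form that 3 of the 15-month libraries share. The share of counts outside miR-486, with the miR-486 reads counted once, was 8.35% to 11.0% in these 4, against 3.48% to 9.62% in the other 6.

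Over the 4 ages, miR-194-5p did not pass edgeR's test (adjusted p = 0.0587). With the filter unchanged, this outcome turned on the library that TMM takes as its reference. With each of the 40 libraries as the reference in turn, an alternative added after the data were seen, miR-194-5p passed in 39 (median adjusted p 0.0145, lowest 0.00267), and the default reference, a 13.5-month library, was the exception. It passed as well with median-ratio factors (adjusted p = 0.0117), in DESeq2 (0.00322), in limma voom (0.000753) and without the miR-486 rows (0.00773), and it failed with the lower filter (0.0990), without a filter (0.387) and with library totals (0.585). With the identifier that the column names repeat at each age as a block, the adjusted p was 0.0323. Of the 6 pairs of ages, 15 against 13.5 months was called, higher at 15 months by a log2 of 0.53 (SE 0.17, adjusted p = 0.0112), with 9 of 10 libraries above the 13.5-month mean. With library totals alone this difference was -0.18, against the median of -0.81. The difference of 15 and 12 months was 0.31 (95% interval -0.036 to 0.66, adjusted p = 0.211).

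**Figure D3:**
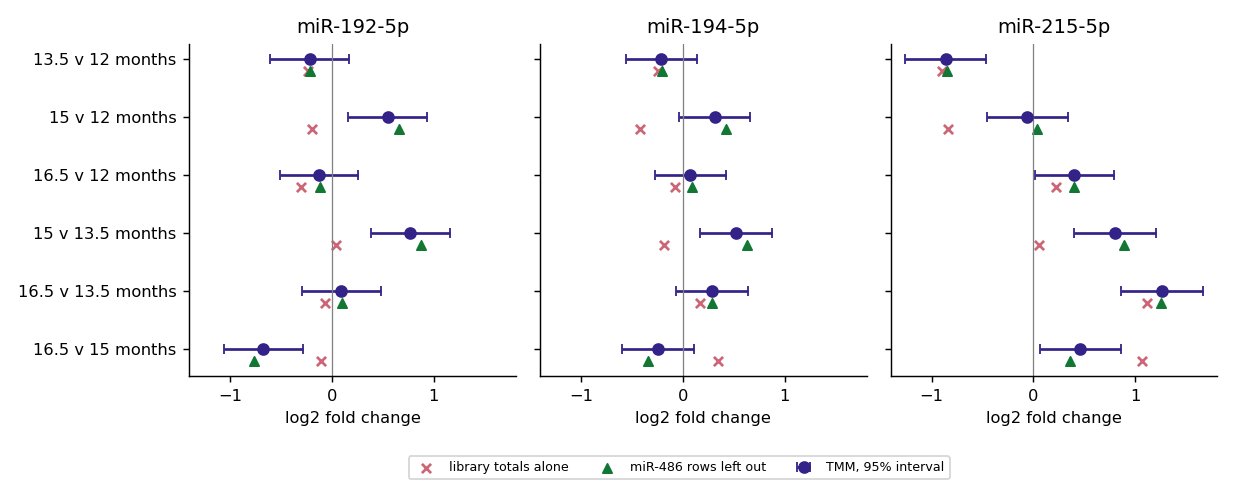
Log2 fold change of miR-192-5p, miR-194-5p and miR-215-5p between each pair of ages. Circles are edgeR estimates with TMM factors and their 95% intervals, crosses use library totals alone, and triangles leave the miR-486 rows out. The crosses of the comparisons with 15 months stand apart from the circles, and miR-192-5p at 15 against 12 months moved from 0.55 to -0.19.

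miR-215-5p, which has the seed of miR-192-5p but lies in the chromosome 1 cluster, followed another course. Its mean level was 3.79 ± 0.42 at 12 months, 2.98 ± 0.27 at 13.5 months, 3.68 ± 0.57 at 15 months and 4.13 ± 0.53 at 16.5 months (log2 CPM, SD, n = 10 each). At 13.5 months 7 of 10 libraries lay below every 12-month library. It changed over age (adjusted p = 1.39e-05) and fell by 0.86 on the log2 scale from 12 to 13.5 months (SE 0.19, adjusted p = 0.000472), where 29.5% of the microRNAs were called and 14.3% were called lower. It was higher by 0.80 at 15 months than at 13.5 months (SE 0.20, adjusted p = 0.000951) and by 1.26 at 16.5 months than at 13.5 months (SE 0.20, adjusted p = 1.42e-06), where 18.1% of the microRNAs were called higher. With library totals alone, 15 months differed from 13.5 months by 0.052 (adjusted p = 0.887), against the median of -0.81, and 13.5 months differed from 12 months by -0.89 (adjusted p = 0.0582), so that both lost their call, while 16.5 months remained higher than 13.5 months by 1.12 (adjusted p = 0.00707). At 12 and 15 months its levels were within the spread of the libraries, with a difference of -0.063 (95% interval -0.46 to 0.33).

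Ratios of reads within a library do not depend on how libraries are scaled. Ratios with miR-122-5p could not be formed, and miR-215-5p was used in its place after the data were seen. The median library held 24.6, 24.9, 29.98 and 21.5 reads of miR-192-5p for each read of miR-194-5p at 12, 13.5, 15 and 16.5 months. On the log2 scale, with 0.5 added to each count, the means were 4.62 ± 0.25, 4.61 ± 0.19, 4.87 ± 0.17 and 4.46 ± 0.23 (SD, n = 10 each). The ratio differed over age in a two-sided permutation test of F with 100000 resamples (p = 0.00138, adjusted over 3 ratios 0.00138). The pairs of ages were tested by permutation of the difference of means, two-sided, with adjustment over 18 comparisons. The ratio was higher at 15 months than at 13.5 months by 0.26 in this permutation test (adjusted p = 0.0101) and than at 12 months by 0.25 (adjusted p = 0.0279), and 10 of 10 libraries lay above the mean of the earlier age in both. From 15 to 16.5 months it fell by 0.41 (permutation, adjusted p = 0.00112), with 9 of 10 libraries below the 15-month mean. With 5 added to each count in place of 0.5, the difference of 15 and 12 months was 0.20 (permutation, adjusted p = 0.0646).

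The ratio of miR-192-5p to its seed relative miR-215-5p moved more. The median library held 39.3, 57.7, 52.6 and 26.1 reads of miR-192-5p for each of miR-215-5p in the order of age. At 16.5 months 10 of 10 libraries lay below the 13.5-month mean and 10 of 10 below the 15-month mean, with log2 differences of -1.09 and -1.13 (permutation, adjusted p = 0.00018 and 0.00024). Over age the permutation p was 1e-05, the smallest that these resamples can give (adjusted 1.5e-05). The ratio of miR-194-5p to miR-215-5p had log2 means of 0.62, 1.23, 1.01 and 0.29, and its permutation p over age was 1e-05 as well. The ratio fell by 0.33 between 12 and 16.5 months (permutation, adjusted p = 0.0293), and that of miR-192-5p to miR-215-5p by 0.49 (permutation, adjusted p = 0.0142), the comparison within one form of column names.

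**Figure D4:**
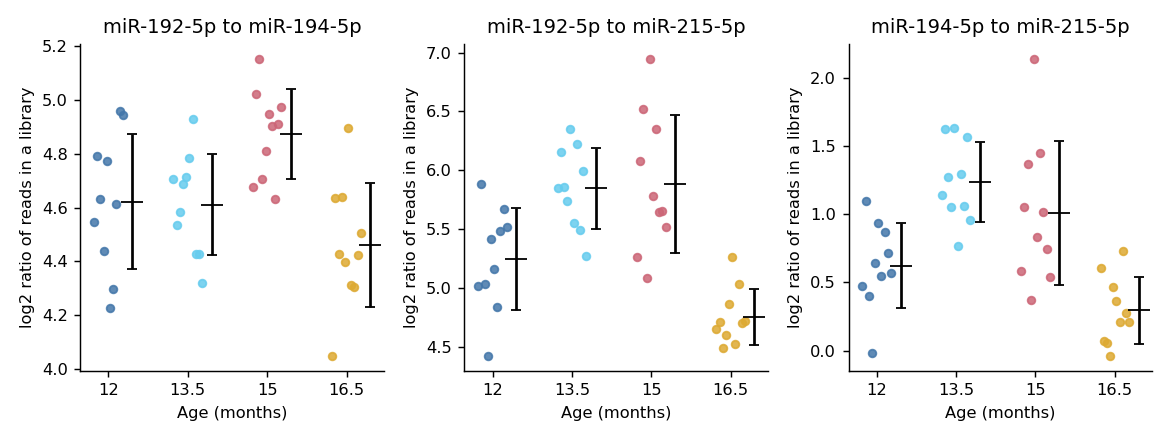
Log2 ratio of reads of 2 microRNAs in the same library, with 0.5 added to each count, against age in months. Points are libraries, and the bar and whiskers give the mean and SD of 10. The ratio of miR-192-5p to miR-194-5p had its highest mean at 15 months (4.87), and both ratios to miR-215-5p had their lowest at 16.5 months (4.75 and 0.29).

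Over the 40 libraries, the levels of miR-192-5p and miR-194-5p varied together. Pearson's r was 0.87 and Spearman's rho 0.85 (permutation p = 1e-05 each, adjusted over 3 pairs 3e-05), where the same animals may have given libraries at several ages. Within each age of 10 libraries r was 0.79, 0.90, 0.93 and 0.88 in the order of age, and it was 0.84 without the 2 libraries farthest from the median of miR-192-5p. The levels share the scaling of each library. With shares of counts outside miR-486 r was 0.88, but these also share 1 divisor within a library, so the shared scaling was not removed. miR-192-5p and miR-215-5p were less closely related, at r = 0.41 (rho 0.41, permutation p = 0.00955 and 0.00922), with values from 0.34 to 0.90 within ages. For miR-194-5p and miR-215-5p r was 0.59 and rho 0.56 (permutation p = 0.00012 and 0.00035), with values from 0.47 to 0.89 within ages.

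**Figure D5:**
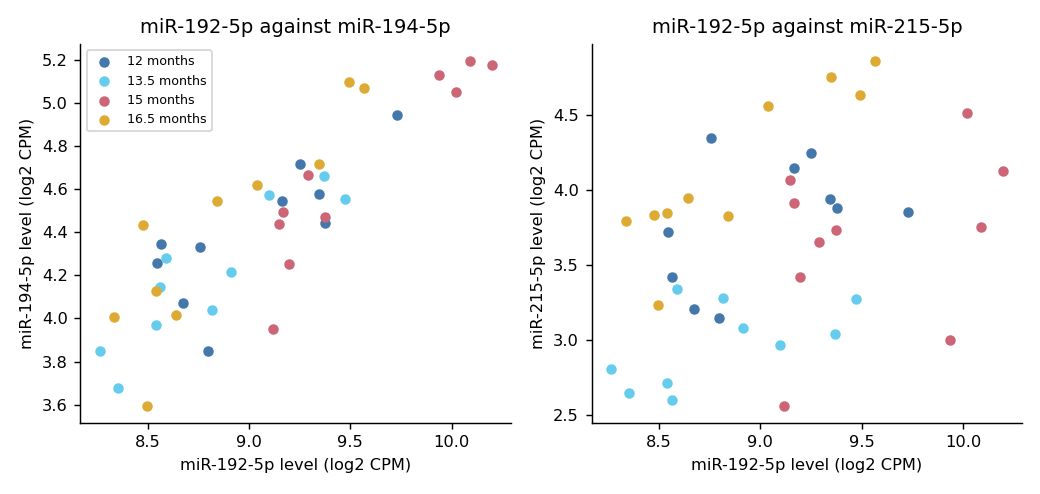
Level of miR-194-5p (left) and of miR-215-5p (right) against that of miR-192-5p in each of the 40 libraries, in log2 CPM, coloured by age. The left points rise together (r = 0.87), with those of 15 months at a higher ratio of miR-192-5p to miR-194-5p than those of 16.5 months, whereas the right points of 13.5 months lie lower than those of 16.5 months at a like level of miR-192-5p (r = 0.41 over all).

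Among the 105 microRNAs tested, the ones most like miR-192-5p over the 40 libraries were miR-194-5p (r = 0.87), miR-148b-3p (0.78) and miR-30b-5p (0.74). The ones most like miR-194-5p were miR-192-5p, miR-21a-5p (0.81) and miR-451a (0.79), which are myeloid and red-cell microRNAs in the lists used here. For miR-215-5p they were miR-186-5p (0.73), miR-19b-3p (0.66) and miR-144-5p (0.63), the last also a red-cell microRNA. These are descriptions over libraries that share depth and scaling. Within ages the values for miR-30b-5p ran from 0.21 to 0.91. Those for miR-186-5p ran from 0.33 to 0.68 and those for miR-144-5p from -0.039 to 0.54, each below its value over all libraries at every age.

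The epithelial microRNAs are set beside miR-192-5p by age, and a difference between them and miR-192-5p was not tested. In the fit with the lower filter, where 39.1% of 345 microRNAs were called over age, 6 of the 8 were tested and 4 changed over age. Between 12 and 15 months 0 of the 6 rose and 2 fell, with a median difference of -0.78 over the 6, where 11.3% of the 345 were called and 8.12% were called lower. miR-200c-3p fell by 1.25 on the log2 scale (SE 0.24, adjusted p = 0.000441) and miR-200b-3p fell by 2.99 (SE 0.80, adjusted p = 0.00992). These counts leaned on 1 library of 12 months, which held the most reads of 6 of the 8 epithelial microRNAs and 281 of the 541 reads of miR-200b-3p. Without it, miR-200b-3p differed by -1.69 (adjusted p = 0.0831) and was not called over age (adjusted p = 0.139), and miR-200c-3p still fell, by 1.08 (adjusted p = 0.00119). Of the 6 tested, 2 then changed over age, and between 12 and 15 months 0 rose and 1 fell, with a median of -0.62. The shares of 39.1%, 11.3% and 8.12% are from the fit to all 40 libraries. No share is given for the fit without that library, so these counts are not read against a background. In the fit to all 40 libraries, miR-200c-3p was higher by 1.26 at 16.5 than at 15 months (adjusted p = 0.000338), where 12.5% were called and 7.25% called higher. miR-148a-3p, tested with the filter of more than 100 reads, changed over age (adjusted p = 0.00487), where 61.0% were called. It fell by 1.05 from 12 to 13.5 months (SE 0.31, adjusted p = 0.00694), where 14.3% of the microRNAs were called lower. Between 12 and 16.5 months it differed by -1.03 (SE 0.31, adjusted p = 0.0146), where 11 of 105 were called lower. The difference of 12 and 15 months was -0.40 (adjusted p = 0.368). Its reads ran from 57 to 7252 per library, with a median of 590. With the lower filter, 0 of 1 tested of the muscle list and 0 of 1 of the brain list changed over age. Since the blood was not separated into cells and plasma, fewer cells of a type and less RNA per cell cannot be told apart for any of these microRNAs.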

How the data were processed

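Small RNA of total blood was sequenced in 40 libraries, 10 at each of 4 ages, and grouped by the age in the labels. The authors trimmed adapters, discarded reads under 18 nt, mapped to mm10 with miRDeep2 and to miRBase hairpins without mismatches, and deposited raw counts per mature microRNA, summed over loci. A deposited table of scaled values was not used. FastQC 0.11.5 is named in the submitters' processing notes. Counts were tested in edgeR 4.0.16 (R 4.3.3) with TMM factors and a quasi-likelihood fit over all microRNAs with more than 100 reads in 50% of libraries (105 of 1915) and called at a Benjamini-Hochberg adjusted p under 0.05. DESeq2 1.42.0 and limma 3.58.1 were alternatives. Levels are log2 CPM with a prior count of 2. Ratios and correlations used 100000 resamples. On simulated counts for 105 microRNAs, 95.7% of changes by a log2 of 1 were recovered at 16.5 v 12 months, with 3.30% false calls.

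The members and lists were chosen with earlier results of these data known. Members, their strands and relatives, the tissue lists and, for each member, the 3 most like microRNAs are named. Column names carry an identifier that recurs at every age, whereas the labels do not tie it to an animal. Deviations from the age means of libraries with the same identifier had a mean correlation of -0.0051 over 60 pairs (24 over 0.1), against 0.0019 over 540 other pairs. That mean takes whole profiles, with single pairs of the same identifier from -0.87 to 0.86, and does not show whether a given microRNA follows the identifier. The main tests treated the libraries as independent, although the study describes repeated bleeding of the same mice, and p-values measure the spread between libraries. With the identifier as a block in edgeR, the adjusted p over age was 0.000732 for miR-192-5p and 0.0323 for miR-194-5p. The permutation tests had no such block. Over the 180 pairs of libraries of one age, chi-square divided by its degrees of freedom was never under 11.4, so none was a duplicate. miR-192-5p is among the microRNAs that the study chose from blood of trained mice, starting from those that changed with age. The labels do not say whether those libraries are the ones used here. If they are, the test of miR-192-5p over age is not independent of that choice.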

Additional observations from a re-analysis of the deposited data

How the results depend on the processing

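The call of miR-192-5p over age held under every alternative but library totals alone (adjusted p = 0.817), and that of miR-194-5p moved with the scaling, the filter and the libraries kept. Depth limits miR-122-5p, which had too few reads for a test, a ratio or a correlation, and the 3 shallow libraries.

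Ages are in months. With library totals alone, the log2 differences of miR-192-5p were -0.19 between 12 and 15, 0.039 between 13.5 and 15, -0.069 between 13.5 and 16.5 and -0.11 between 15 and 16.5. For miR-194-5p the value was -0.42 between 12 and 15, -0.073 between 12 and 16.5, -0.18 between 13.5 and 15 and 0.35 between 15 and 16.5, and for miR-215-5p it was -0.84 between 12 and 15 and 1.06 between 15 and 16.5, both now called, and -0.89 between 12 and 13.5 and 0.052 between 13.5 and 15, no longer called. The adjusted p of miR-194-5p over age was 0.0990 with the lower filter, 0.387 without a filter, 0.585 with library totals, 0.0117 with median-ratio factors, 0.00322 in DESeq2, 0.000753 in limma voom, 0.00773 without the miR-486 rows, 0.00179 with 1 factor of unwanted variation and 0.0323 with the replicate block by column identifier. Limma voom also called miR-192-5p (-0.41) and miR-194-5p (-0.38) at 13.5 v 12 and miR-194-5p (0.43) at 16.5 v 13.5. With 1 factor of unwanted variation, miR-194-5p was called at 15 v 12 (0.37) and 16.5 v 13.5 (0.25), miR-215-5p at 16.5 v 12 (0.48) and 16.5 v 15 (0.47), and miR-192-5p at 16.5 v 12 was 0.019. In fits to only the 2 ages compared, miR-194-5p was called at 15 v 12 (0.44). miR-192-5p at 15 v 12 lost its call with the lower filter (0.52) and without a filter (0.45), and without a filter miR-194-5p at 15 v 13.5 (0.50) and miR-192-5p at 16.5 v 15 (-0.64) lost theirs, where 345 and 1016 microRNAs were tested. The uncalled difference of miR-215-5p at 15 v 12 changed sign with median-ratio factors (0.0064), DESeq2 (0.0076), the miR-486 rows left out (0.035), the unwanted factor (0.0085) and the 2 ages alone (0.060).

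Over the 40 possible TMM references, the adjusted p of miR-194-5p over age ran from 0.00267 to 0.0587. Its differences went as low as -0.081 at 16.5 v 12 and -0.41 at 16.5 v 15 (called with 1 reference) and as high as 0.44 at 15 v 12 (called with 3). miR-192-5p at 16.5 v 13.5 reached -0.018, and miR-215-5p at 15 v 12 reached 0.075. The causes were not tested.

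With each library left out in turn, the adjusted p over age ran from 0.000277 to 0.00844 for miR-192-5p and from 0.0126 to 0.122 for miR-194-5p, which passed in 26 of 40. The difference of miR-192-5p at 15 v 12 ran from 0.46 to 0.68, that of miR-194-5p at 16.5 v 12 from -0.024 to 0.14, and that of miR-215-5p at 15 v 12 from -0.18 to 0.073. Adding 5 in place of 0.5 to the counts, the ratio of miR-192-5p to miR-194-5p at 15 v 12 was 0.20 and lost its call, and the uncalled ratio of miR-192-5p to miR-215-5p at 15 v 13.5 was -0.037. The replicate block changed no other call of the members. Against 64 of 105 called over age, 135 of 345 were called with the lower filter and 113 of 1016 without one. In the order 13.5 v 12, 15 v 12, 16.5 v 12, 15 v 13.5, 16.5 v 13.5 and 16.5 v 15, the main counts of 31, 25, 25, 50, 42 and 30 became 54, 39, 48, 93, 74 and 43 with the lower filter. Library totals alone called 84 for 15 v 12 (2 higher, 82 lower, against 8 and 17), 66 for 16.5 v 15 (64 and 2, against 20 and 10), 73 for 15 v 13.5 (2 and 71, against 18 and 32), 12 for 13.5 v 12 (9 and 3, against 16 and 15), 28 for 16.5 v 13.5 (4 and 24, against 19 and 23) and 5 for 16.5 v 12 (2 and 3, against 14 and 11). Median-ratio factors split the calls of 15 v 13.5 into 27 and 30 and those of 15 v 12 into 9 and 12. With 1 unwanted factor 54, 44 and 47 were called for 13.5 v 12, 15 v 12 and 16.5 v 15.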
